A study of Bos taurus with 15 samples.

Results

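Transcripts of 8 pluripotency factors of the inner cell mass, NANOG, POU5F1, SOX2, SALL4, TDGF1, ESRRB, TFCP2L1 and OTX2, were followed in pooled bovine blastocysts cultured without oviductal extracellular vesicles (Co, control), with fresh vesicles (FeEV) or with frozen vesicles (FoEV). The genes were found by their symbols among the NCBI gene identifiers of the count tables. All 8 had counts, and 7 of them were among the 10832 of 34773 genes that the authors kept after filtering for low counts. TDGF1, listed in RefSeq under the symbol CRIPTO, was outside the filtered table and is given without a test. All embryos were produced in vitro and taken at the blastocyst stage, at day 7 according to the sample labels, whereas the text of the study gives 8 days of culture. Each of the 15 libraries, 5 per treatment, was made from 1 ng of RNA of a separate pool of 8 to 14 embryos, and the pools with the best RNA were chosen for sequencing. The vesicles came from the oviducts of slaughtered cows in the postovulatory stage, and Co embryos were grown without them. According to the study, fresh and frozen vesicles were portions from the same oviducts and differed only by freezing and thawing. Which embryo pools shared a vesicle preparation is not given in the labels. Strain, sex and sire of the embryos are not given in the labels.

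A blastocyst consists of an inner cell mass, from which the fetus arises, and an outer trophectoderm, which forms the placenta. NANOG, POU5F1 (OCT4) and SOX2 are DNA-binding proteins that keep cells of the inner cell mass pluripotent and act on each other's genes, and SALL4 is a zinc finger partner of the same network. In the late inner cell mass, NANOG marks the epiblast, which stays pluripotent. Cells of the hypoblast switch NANOG off and express genes such as GATA6. ESRRB and TFCP2L1 are known from naive mouse embryonic stem cells, OTX2 from the step towards the primed state, and TDGF1 (CRIPTO) is a membrane co-receptor of NODAL. Whole embryos were sequenced, and which of their cells held each transcript was not measured. Fewer cells of the inner cell mass, another mix of cells and less RNA per cell therefore cannot be told apart in these data. This also holds for ratios between the factors.

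Library totals lay between 2136713 and 4058887 counts, and every Co library was shallower than every FoEV library. The median correlation of a library with the rest of its treatment lay between 0.954 and 0.970, lowest for FoEV library 4. The highest correlation of that library with any other was 0.961, against 0.970 to 0.978 for the remaining libraries. FoEV library 4 also had the highest levels of POU5F1, SOX2, SALL4 and ESRRB of all libraries. Levels of the 7 filtered genes are in CPM, the share of a library's counts scaled by the TMM factors of edgeR, and are not corrected for transcript length, so that levels are compared between libraries and not between genes. The 5 libraries of a treatment are separate embryo pools, and a standard deviation (SD) is their spread. Treatments were compared across all 10832 genes in edgeR by quasi-likelihood F tests, with calls made below an adjusted p of 0.05.

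**Figure D1:**
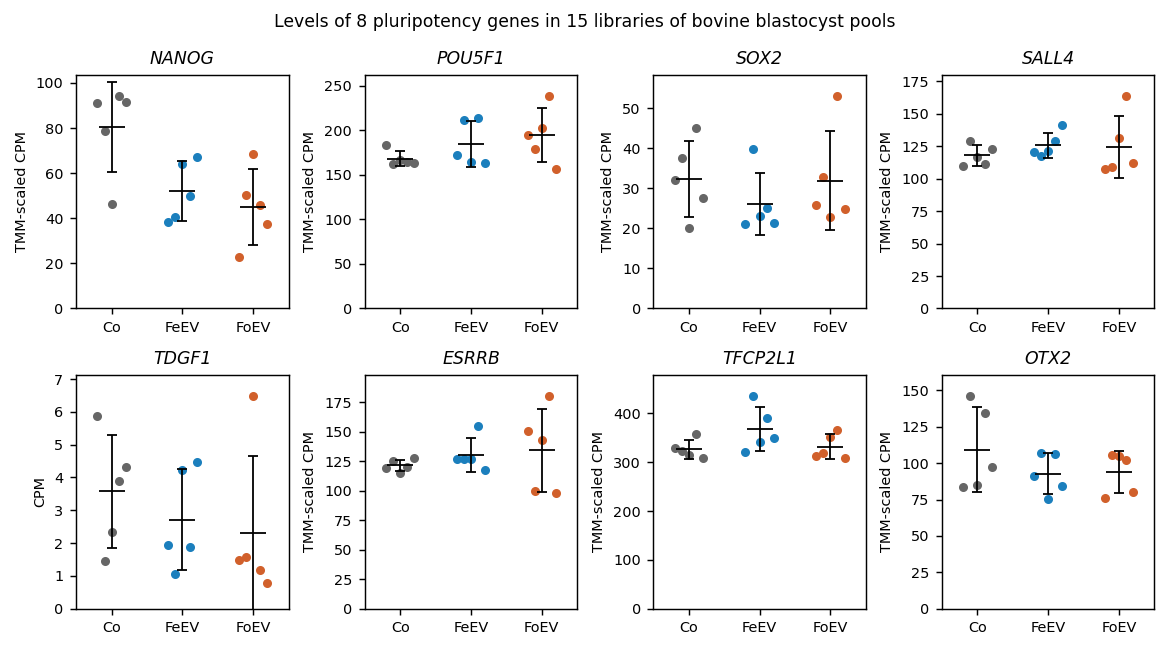
Level of each of the 8 genes (y axis, TMM-scaled CPM, or CPM by library total for TDGF1) in the 5 libraries of each treatment (x axis), with the mean as a horizontal bar and the SD as an error bar. For NANOG, 4 of the 5 Co libraries lie above all FeEV and FoEV libraries, and the treatments overlap for all 8 genes.

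NANOG, the factor that marks the epiblast, had lower mean levels in oEV-treated than in control embryos, but the difference did not pass the test across all genes. Its level was 91.2, 78.6, 46.4, 94.3 and 91.5 CPM in Co libraries 1 to 5. In FeEV-treated embryos it was 38.4, 40.5, 64.1, 50.1 and 67.3 CPM. The FoEV libraries had 22.9, 50.5, 68.3, 45.7 and 37.6 CPM. All Co libraries except library 3 were above every oEV-treated library, and Co library 3 was below 3 FeEV and 2 FoEV libraries, so the treatments overlapped. The means were 80.4 ± 19.9 CPM in Co, 52.1 ± 13.2 CPM in FeEV and 45.0 ± 16.7 CPM in FoEV (SD, n = 5 each). The values rested on 99 to 250 counts per library.

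For the comparison of FoEV treatment vs. Co, the log2 fold change of NANOG was -0.84 (SE 0.26, 95% interval -1.40 to -0.27), a level 0.560 times that of Co. The edgeR quasi-likelihood test gave an adjusted p of 0.178, so NANOG was not called. The study itself lists NANOG among the genes downregulated in FoEV-treated embryos. Among 10832 genes NANOG had the 26th lowest log2 fold change and rank 387 by p. The call depended on the test, with an adjusted p of 0.0067 from edgeR's likelihood ratio test on the robust dispersion that the study names and of 0.0399 from the Wald test of DESeq2. Its lowest and highest adjusted p over 7 alternatives were 0.0067 and 0.300. Leaving out any 1 of the 15 libraries gave log2 fold changes between -1.05 (without FoEV replicate 3) and -0.66 (without FoEV replicate 1), with adjusted p between 0.116 and 0.346 in edgeR's quasi-likelihood test.

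In FeEV treatment vs. Co, NANOG had a log2 fold change of -0.62 (SE 0.26, 95% interval -1.18 to -0.05) with an adjusted p of 1.000 in edgeR. With the library number of the sample descriptions as a block it was -0.38 (edgeR adjusted p = 0.942), and without 1 library it lay between -0.76 and -0.52. Between both EV treatments the log2 fold change, FoEV minus FeEV, was -0.22 (95% interval -0.79 to 0.35, edgeR adjusted p = 0.828), so a difference between frozen and fresh vesicles was not detected for NANOG. This value ran from -0.43 without FoEV replicate 3 to -0.05 without FoEV replicate 1. The comparisons of FoEV and FeEV with Co share the 5 Co libraries and are not independent of each other. The FoEV and FeEV vesicles also came from the same oviducts, which the tests did not take into account.

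**Figure D2:**
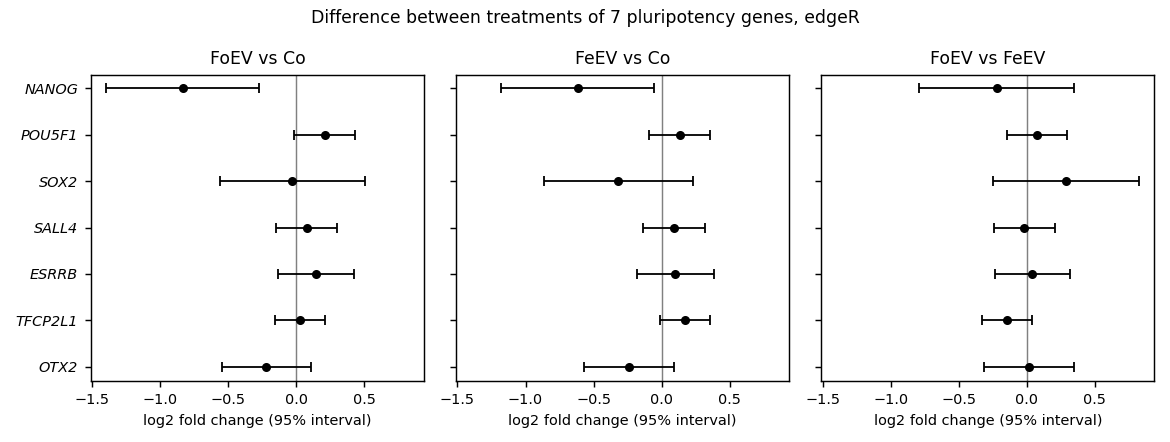
Log2 fold change (x axis) of the 7 tested genes (y axis) in FoEV vs. Co, FeEV vs. Co and FoEV vs. FeEV, with the 95% interval of edgeR's quasi-likelihood fit as an error bar. Only the intervals of NANOG in both comparisons with Co leave out 0, from -1.40 to -0.27 for FoEV and from -1.18 to -0.05 for FeEV.

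Neither of the partner factors of NANOG showed a lower level that passed the test. POU5F1, the POU domain factor of the pluripotency network, was at 183, 163, 167, 165 and 164 CPM in Co embryos. Its FeEV libraries were at 172, 211, 164, 214 and 163 CPM, and its FoEV libraries at 194, 179, 203, 239 and 157 CPM. The Co values lay close together, whereas 3 FoEV libraries were above all Co libraries and 1 was below them. The log2 fold change was 0.21 in FoEV vs. Co (SE 0.11, 95% interval -0.02 to 0.43, edgeR adjusted p = 0.368) and 0.13 in FeEV vs. Co (95% interval -0.09 to 0.36, edgeR adjusted p = 1.000). A POU5F1-like pseudogene, LOC101904955, had 51, 55 and 106 counts summed over Co, FeEV and FoEV, which equals 2.21%, 2.02% and 2.97% of the POU5F1 counts. Since reads may be shared between such copies, the POU5F1 level carries that uncertainty.

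SOX2, the HMG box partner of POU5F1, was the gene with the fewest counts in the filtered set, with 55 to 159 per library. Its levels were 32.1, 37.4, 19.99, 45.0 and 27.5 CPM in Co, 21.2, 39.7, 23.1, 25.0 and 21.2 CPM in FeEV, and 25.9, 32.8, 22.9, 53.1 and 24.8 CPM in FoEV. The treatments overlapped widely, with FoEV library 4 the highest of all and Co library 3 the lowest, and Co library 3 also had the lowest NANOG level among the controls. For FoEV vs. Co the log2 fold change of SOX2 was -0.03 (95% interval -0.56 to 0.50, edgeR adjusted p = 0.969), and for FeEV vs. Co it was -0.32 (95% interval -0.87 to 0.23, adjusted p = 1.000). Differences of up to about the size found for NANOG are thus within the interval of FeEV vs. Co for SOX2, though not within that of FoEV vs. Co.

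SALL4 had mean levels of 118 ± 8.09 CPM in Co, 126 ± 9.60 CPM in FeEV and 125 ± 24.0 CPM in FoEV (SD, n = 5 each). The FoEV libraries were at 108, 109, 131, 164 and 112 CPM, of which library 4 was above all other libraries of the 3 treatments. Its log2 fold change was 0.07 in FoEV vs. Co (95% interval -0.15 to 0.30, edgeR adjusted p = 0.781) and 0.09 in FeEV vs. Co (adjusted p = 1.000).

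Of the factors known from naive mouse stem cells, ESRRB lay in a narrow range in control embryos and in a wider one in FoEV-treated embryos. This orphan nuclear receptor was at 119, 125, 115, 120.4 and 128 CPM in Co. In FoEV it was at 151, 100.1, 143, 180.3 and 98.1 CPM, with 3 libraries above and 2 below all Co libraries. The coefficient of variation of Co libraries was 4.07%, that of FeEV libraries 11.02% and that of FoEV libraries 26.1%, and a difference in spread was not tested. The mean of 134 ± 35.1 CPM in FoEV against 122 ± 4.95 CPM in Co (SD, n = 5 each) gave a log2 fold change of 0.14 (95% interval -0.13 to 0.42, edgeR adjusted p = 0.635).

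TFCP2L1, a grainyhead-related factor, varied least of the 7 genes around the fit. Its tagwise biological coefficient of variation of 0.103 was at the 10.8 percentile of all genes, against 0.253 at the 88.5 percentile for NANOG. Its level was 329, 322, 314, 358 and 308 CPM in Co, 321, 436, 342, 391 and 349.7 CPM in FeEV, and 313, 319.9, 351, 367 and 308 CPM in FoEV. Co and FoEV libraries covered nearly the same range, and 2 FeEV libraries were above all others. In FeEV vs. Co the log2 fold change was 0.17 (95% interval -0.01 to 0.36, edgeR adjusted p = 1.000), in FoEV vs. Co it was 0.02 (95% interval -0.16 to 0.21, adjusted p = 0.922), and in FoEV vs. FeEV it was -0.15 (adjusted p = 0.634).

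OTX2, a homeobox factor of the primed state and of the later head region, was at 83.5, 146, 84.8, 134 and 97.3 CPM in Co. The FeEV libraries had 91.5, 107, 75.1, 107 and 84.1 CPM and the FoEV libraries 75.9, 106, 105, 102 and 80.4 CPM. Co libraries 2 and 4 were above all oEV-treated libraries, and the other Co libraries lay among them. The log2 fold change was -0.22 in FoEV vs. Co (95% interval -0.55 to 0.11, edgeR adjusted p = 0.516) and -0.24 in FeEV vs. Co (adjusted p = 1.000).

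TDGF1, the NODAL co-receptor, was near the limit of detection. It had 17, 4, 7, 10 and 12 counts in the Co libraries, 6, 3, 13, 4 and 17 counts in FeEV, and 6, 6, 24, 4 and 3 counts in FoEV. FoEV library 3 alone held 24 of the 43 counts of its treatment. Relative to the library totals the means were 3.58 ± 1.72, 2.71 ± 1.54 and 2.30 ± 2.36 CPM in Co, FeEV and FoEV (SD, n = 5 each), and no test was made at these counts. NODAL itself had 0 to 3 counts per library, at or below a floor of 3 counts, and GDF3, a ligand of the same family that lies close to NANOG, had 2 to 14.

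Set against all genes, the 7 tested factors had no shared direction. No factor was called in any of the 3 comparisons, where edgeR called 0.00923% of all genes (1 of 10832; 0 to 58 when 1 library was left out, the most without FoEV replicate 2) in FoEV vs. Co, 0% in FeEV vs. Co and 0% in FoEV vs. FeEV. At an unadjusted p under 0.05, NANOG was the only one of 7 in FoEV vs. Co, a comparison in which 15.1% of all genes met that level. It was also the only one of 7 in FeEV vs. Co, against 4.15% of all genes, and in FoEV vs. FeEV 0 of 7 met that level, against 8.52% of all genes. The libraries of both treatments overlapped for all 7 genes in each comparison, whereas 2.6%, 0.951% and 1.5% of all genes had no overlap in FoEV vs. Co, FeEV vs. Co and FoEV vs. FeEV. In FoEV vs. Co, 4 of 7 log2 fold changes were positive, with a median of 0.02, beside 52.3% positive and a median of 0.01 over all genes. The summed level of the 7 genes was 864 to 1029 CPM in Co, 891 to 1078 CPM in FeEV and 818 to 1151 CPM in FoEV.

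The ratio of NANOG counts to SOX2 or POU5F1 counts within a library does not depend on library size. The log2 ratio of NANOG over POU5F1 was -1.004, -1.05, -1.84, -0.81 and -0.84 in Co, -2.16, -2.38, -1.35, -2.09 and -1.28 in FeEV, and -3.08, -1.82, -1.57, -2.38 and -2.06 in FoEV. All Co libraries except library 3 were above all oEV-treated libraries, which repeats the order seen for NANOG itself. The mean difference was -1.07 between FoEV and Co, with p = 0.0238 in a two-sided exact permutation test and 0.111 after adjustment over the 6 ratio comparisons. It was -0.74 between FeEV and Co (exact permutation p = 0.0556, adjusted 0.111) and -0.33 between FoEV and FeEV (exact permutation p = 0.397). Without Co replicate 3 the differences to Co were -1.26 for FoEV and -0.93 for FeEV, each with an adjusted exact permutation p of 0.0476. This library decided on which side of the threshold they fell. It was the only overlapping Co library, so leaving it out fixed the unadjusted p at the smallest value that the test allows. No conclusion is drawn from these p-values.

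The log2 ratio of NANOG over SOX2 was 1.501, 1.07, 1.21, 1.07 and 1.73 in Co, 0.86, 0.03, 1.46, 0.99 and 1.66 in FeEV, and -0.18, 0.62, 1.57, -0.21 and 0.60 in FoEV. In FoEV, 4 of 5 libraries were below all Co libraries. The mean difference between FoEV and Co was -0.83 (exact permutation p = 0.0556, adjusted 0.111), and that between FeEV and Co was -0.31 (exact permutation p = 0.357, adjusted 0.397) and -0.071 without FeEV replicate 2.

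**Figure D3:**
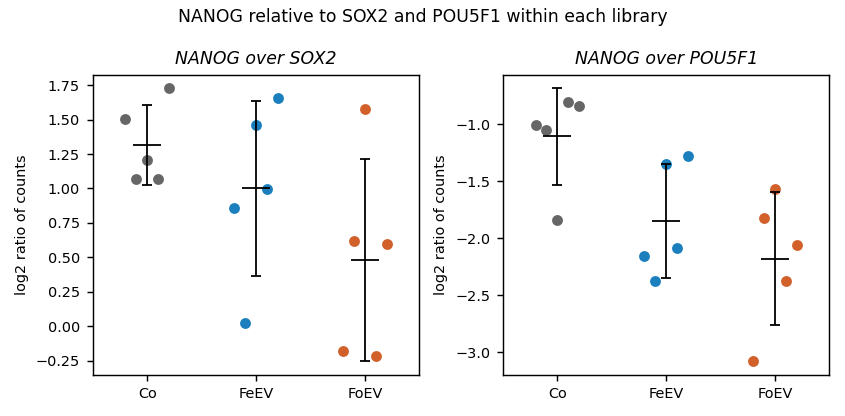
Log2 ratio of NANOG counts to SOX2 counts (left) and to POU5F1 counts (right) in each library (y axis) by treatment (x axis), with means and SD. In the right panel Co library 3, at -1.84, is the only Co library within the range of the oEV-treated libraries, and in the left panel 4 Co libraries are.

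Libraries of the same treatment were used to ask which factors varied together between embryo pools. Over the deviations of log2 CPM from the treatment means in 15 libraries, 3 of the 21 pairs passed an adjusted p of 0.05 for Pearson's r, and 0 of 21 for Spearman's rho. How often pairs of other genes do so was not computed, so the count cannot be taken as particular to these factors. POU5F1 and ESRRB had r = 0.774 (permutation p = 0.00535, adjusted 0.0378) and rho = 0.696 (permutation p = 0.0210, adjusted 0.110), and r was 0.533 without the 2 libraries with the most extreme POU5F1 deviations. For POU5F1 and TFCP2L1, r was 0.756 (permutation p = 0.0054, adjusted 0.0378) and rho 0.75 (permutation p = 0.0123, adjusted 0.110), with r = 0.726 without the 2 extreme libraries. SOX2 and TFCP2L1 had r = 0.711 (permutation p = 0.00328, adjusted 0.0378) and rho = 0.661 (permutation p = 0.0117, adjusted 0.110), with r = 0.468 without the 2 extreme libraries. The pairs of NANOG with the other factors reached r between -0.04, with POU5F1 and ESRRB, and 0.36, with SALL4, and none of the 6 passed the test.

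All 7 genes had a negative correlation of these deviations with log2 library total, from r = -0.05 for NANOG to r = -0.58 for POU5F1 (permutation p = 0.0234, adjusted 0.0654). Without the 2 most extreme libraries r was -0.511 for NANOG, -0.456 for POU5F1, -0.797 for SOX2 and -0.618 for SALL4. It was then -0.350 for ESRRB, -0.714 for TFCP2L1 and -0.737 for OTX2. By Spearman's rho, the adjusted permutation p was 0.0178 for OTX2, 0.0225 for TFCP2L1 and 0.0270 for SOX2. The share of all genes with a negative correlation was not computed, so the shared sign cannot be taken as particular to these 7 genes. The part of library depth in the correlations among POU5F1, SOX2, ESRRB and TFCP2L1 was not tested. Its part in the lower NANOG level of the deeper FoEV libraries was not tested either.

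Genes with levels most like those of NANOG were ranked as a description. Over the 15 libraries and 8616 genes with a mean of at least 10 CPM, the 5 highest Pearson r with NANOG in log2 CPM belonged to LOC515333 (0.896), NID1 (0.894), HNF4A (0.876), SOX11 (0.870) and EMILIN2 (0.863). After removal of the treatment means r was 0.858, 0.860, 0.870, 0.810 and 0.762 for the same genes. NID1 encodes the basement membrane protein nidogen, HNF4A a nuclear receptor of endoderm and hypoblast, SOX11 a transcription factor of the SOX family and EMILIN2 an extracellular matrix protein. In FoEV vs. Co their log2 fold changes were -0.66, -0.85, -0.53, -0.70 and -0.71, with edgeR adjusted p between 0.138 and 0.362. These correlations describe the same 15 libraries, share their scaling, and were selected as the highest of many, so no p is given for them. The selection also took in the differences between treatments, so lower levels in FoEV, as for NANOG, follow in part from it. The fold changes and adjusted p of these genes are therefore no separate evidence.

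Of the other factors, OTX2 ranked 751 of 8616 for likeness to NANOG (r = 0.427), SOX2 2325 (r = 0.197), SALL4 2924, TFCP2L1 4276, ESRRB 6044 and POU5F1 7361 (r = -0.329). Of 12 hypoblast markers with at least 10 CPM, 7 had a positive r, the median was 0.258, and values lay between -0.336 and 0.876. PDGFRA, a receptor on hypoblast cells, ranked 61 (r = 0.704) and GATA6 had r = 0.159. Of 23 further pluripotency genes, 16 had a positive r, with a median of 0.137, led by IL6ST at rank 70 (r = 0.692) and KLF5 at rank 103 (r = 0.651). Of 15 trophectoderm markers 4 had a positive r, with a median of -0.244. Of 2 genes listed as cumulus and oviduct markers, CYP19A1 ranked 8598 (r = -0.735, and -0.708 after removal of the treatment means). HSD3B1 had r = 0.156. The gene most like each of the other factors was ZMIZ2 for POU5F1 (r = 0.896), SYMPK for SOX2 (0.826), MYBBP1A for SALL4 (0.859), AHCY for ESRRB (0.829), AGO1 for TFCP2L1 (0.863) and LOC509283 for OTX2 (0.899).

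**Figure D4:**
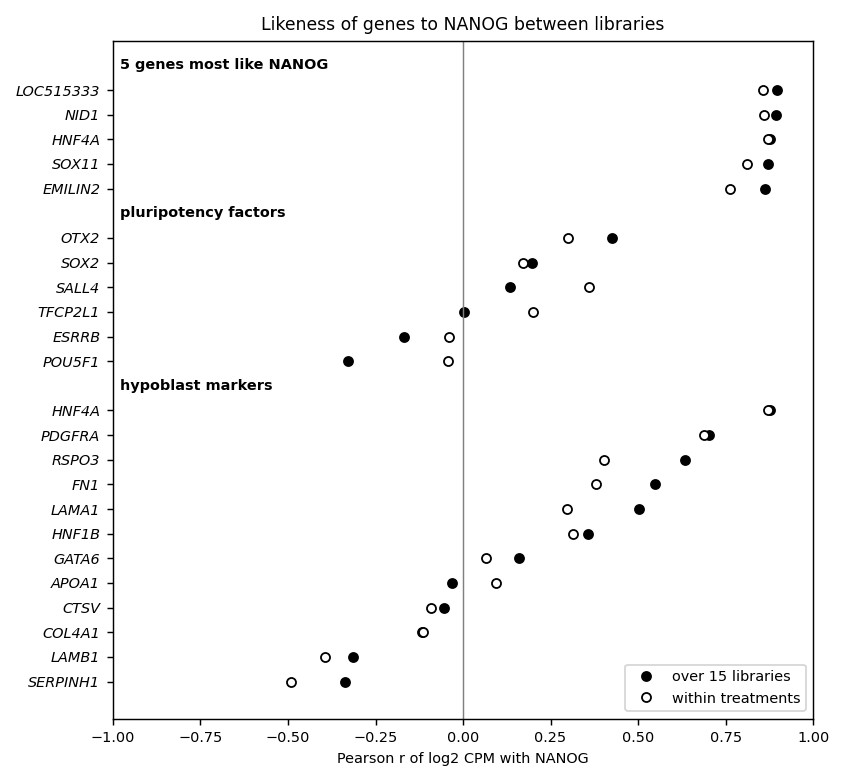
Pearson r of log2 CPM with NANOG (x axis) for the 5 most similar genes, 6 pluripotency factors and 12 hypoblast markers (y axis), over 15 libraries (filled) and after removing treatment means (open). The pluripotency factors run from -0.329 (POU5F1) to 0.427 (OTX2) and the hypoblast markers from -0.336 (SERPINH1) to 0.876 (HNF4A).

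Genes next to NANOG in the RefSeq gene order of the ARS-UCD2.0 assembly, which is not the build of the counts, gave a comparison for a shared region. DPPA3 (STELLA), a maternal and pluripotency factor, had a log2 fold change of -0.06 in FoEV vs. Co (SE 0.14, edgeR adjusted p = 0.859), the glucose transporter gene SLC2A3 also -0.06 (adjusted p = 0.798) and FOXJ2 -0.15 (adjusted p = 0.577). These log2 fold changes were closer to 0 than that of NANOG, and the difference between them was not tested.

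A list of 42 further pluripotency genes was examined, of which 40 were matched and 28 were in the filtered table. In FoEV vs. Co, 11 of the 28 had a positive log2 fold change and the median was -0.10, beside 0.01 over all genes, and none was called by edgeR. At an unadjusted p under 0.05 there were 3 genes with lower and 2 with higher levels, 17.9% of the 28 beside 15.1% of all genes. TERF1, a telomere-binding protein abundant in pluripotent cells, had -0.43 (SE 0.11, edgeR adjusted p = 0.0998). Its FoEV libraries had 55.6 to 74.4 CPM against 71.4 to 99.2 CPM in Co, an overlap due to Co library 5. The Krüppel-like factor KLF5, which acts in both the inner cell mass and the trophectoderm, had -0.24 (SE 0.07, edgeR adjusted p = 0.143), with 639 to 738 CPM in FoEV and 789 to 867 CPM in Co and no overlap. IL6ST (gp130), the receptor subunit for LIF and interleukin 6, had -0.47 (SE 0.14, edgeR adjusted p = 0.148). TERF1 was called by the robust likelihood ratio test, DESeq2 and edgeR with no filter, KLF5 by DESeq2, and IL6ST by edgeR with no filter and with the replicate block (adjusted p = 0.0433).

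The genes with higher levels were KLF2, with 0.93 (edgeR adjusted p = 0.206), and PRDM1, a repressor known from the germ line, with 0.65 (adjusted p = 0.259), both named after their values were seen. In FeEV vs. Co, PRDM1 had 0.81 and the DNA methyltransferase gene DNMT3B 0.35, the only 2 of 28 (7.14%) at an unadjusted p under 0.05, a level met by 4.15% of all genes. In FoEV vs. FeEV, TERF1 (-0.32), IL6ST (-0.34) and RIF1 (-0.19) met that level with lower values in FoEV, 3 of 28 (10.7%) beside 8.52% of all genes. In these last comparisons no listed gene was called by edgeR, with adjusted p between 0.496 and 1.000 for the genes named.

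Markers of the other cells of the embryo were examined in the same way. Of 20 listed trophectoderm genes 15 were in the filtered table, and of these 14 had a positive log2 fold change in FoEV vs. Co, with a median of 0.20, where 52.3% of all genes were positive, and 4 of 15 (26.7%) met an unadjusted p under 0.05, where 15.1% of all genes did. These were the keratin genes KRT18 (0.55, edgeR adjusted p = 0.0818) and KRT8 (0.25, adjusted p = 0.289) and the trophoblast factors GATA3 (0.19, adjusted p = 0.238) and GATA2 (0.34, adjusted p = 0.276). GATA3 was at 225 to 252.4 CPM in FoEV and 194 to 219 CPM in Co without overlap. KRT18 was at 3161 to 4587 CPM in FoEV and 2247 to 3231 CPM in Co, and it was called by the robust likelihood ratio test (adjusted p = 0.00379), by DESeq2 (0.0107), with the replicate block (0.0126), with no filter on low counts and without FoEV replicate 2 (0.0410). The summed level of the 15 genes was 8541 to 11893 CPM in Co, 8925 to 13580 CPM in FeEV and 10874 to 14898 CPM in FoEV. Most of that sum was KRT8, KRT18 and PTGS2, with means of 4266, 2684 and 1804 CPM in Co. In FoEV their means were 5088, 3929 and 1823 CPM. In FeEV vs. Co, 8 of the 15 genes were positive with a median of 0.05 and 0 met the unadjusted level.

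Of 15 listed hypoblast genes 13 were in the filtered table, and 6 of these were positive in FoEV vs. Co, with a median of -0.03, while 3 were positive in FeEV vs. Co, with a median of -0.11. RSPO3, a secreted enhancer of WNT signalling, had -0.76 (SE 0.24, edgeR adjusted p = 0.162), FN1 (fibronectin) -0.29 (adjusted p = 0.331) and HNF4A -0.53 (adjusted p = 0.362), and the first 2 met an unadjusted p under 0.05, 15.4% of the 13 genes beside 15.1% of all genes. RSPO3 was called by edgeR with no filter and HNF4A by the robust likelihood ratio test. HNF4A was at 45.1 CPM in Co library 3 and 92.6 CPM in FoEV library 3, the same libraries that were lowest and highest for NANOG within their treatments. GATA6, which opposes NANOG in the inner cell mass, had -0.03, and GATA4 0.32. The summed level of the list was 7928 to 10587 CPM in Co, 7165 to 9482 CPM in FeEV and 6417 to 8965 CPM in FoEV. Most of that sum was FN1, with means of 6803 CPM in Co, 6218 CPM in FeEV and 5566 CPM in FoEV. The sums of the trophectoderm and hypoblast lists thus rest on few genes and do not give the content of these cells. The part of trophectoderm and hypoblast content of the pools in the NANOG level was not tested.

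Genes listed as markers of cells that may cling to embryos or vesicles were also examined. Which cells held their transcripts was not measured, so their levels do not give the content of such cells. Of 15 cumulus and oviduct genes 6 were in the filtered table, with a summed level of 119 to 310 CPM (Co), 126 to 260 CPM (FeEV) and 137 to 324 CPM (FoEV), ranges that overlapped widely. Most of that sum was HSD3B1, a steroid dehydrogenase gene, at 181 ± 70.5 CPM in Co, 134 ± 60.9 CPM in FeEV and 157 ± 83.6 CPM in FoEV (SD, n = 5 each). The smallest p in FoEV vs. Co were those of CYP19A1 (aromatase, 0.48, edgeR adjusted p = 0.389), STAR (-0.40, adjusted p = 0.462) and the FSH receptor gene FSHR (-0.30, adjusted p = 0.530). The oviduct glycoprotein gene OVGP1 had 0 to 6 counts per library, the ciliary factor gene FOXJ1 0 to 4, and the cumulus gene PTX3 had 1 count in all libraries together.

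**Figure D5:**
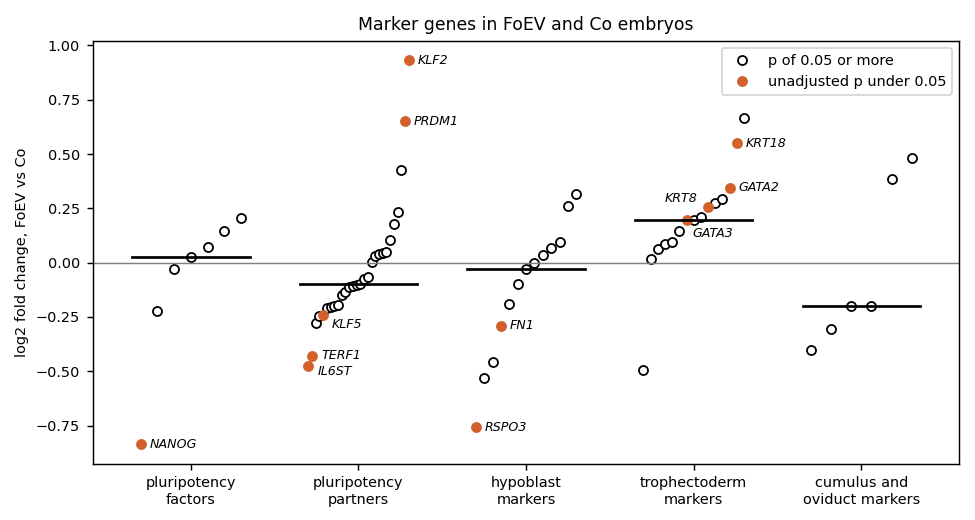
Log2 fold change in FoEV vs. Co (y axis) of each filtered gene of the 5 lists (x axis), ordered by value within a list, with the list median as a bar and genes at an unadjusted p under 0.05 filled and named. NANOG (-0.84) is the lowest value shown, the other 6 pluripotency factors lie between -0.22 and 0.21, and the trophectoderm median is 0.20.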

How the data were processed

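RNA of 15 pools of bovine blastocysts was sequenced, 5 libraries for each of 3 treatments. The deposited values are read counts per gene, neither scaled nor normalised by the authors. The study's methods give QuasR Qcount and assembly ARS-UCD1.2 (bosTau9) with the NCBI annotation, and the submitters' processing notes list Trim Galore 0.4.3.1, HISAT2 2.1.0 and featureCounts 1.6.3. The filtered table holds 10832 of 34773 genes, with the same counts as the full table. Symbols were joined by NCBI gene identifier to RefSeq (10709 of 10832 matched), and mapping was not repeated.

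Samples were grouped by treatment in their titles. Counts were fitted with edgeR 4.0.16 in R 4.3.3 (TMM, estimateDisp, glmQLFit with robust=TRUE, glmQLFTest) in 1 fit over all libraries with treatment as the only factor, and p-values were adjusted by Benjamini-Hochberg over all 10832 genes. A likelihood ratio test on a robust dispersion, which the study names, and DESeq2 1.42.0 were alternatives. Log2 CPM had a prior count of 2, ratios of counts a pseudocount of 0.5, and ratios were compared by two-sided exact permutation of 5 against 5 libraries. Correlations used 100000 permutations within treatments. The edgeR and DESeq2 p-values set differences between treatments against the variation between pools, estimated with information shared across genes. The permutation p-values come from reassigning libraries, between treatments for ratios and within treatments for correlations.

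The factors and gene lists were chosen with earlier results of these data known. Named besides the 8 factors were the 3 genes with the smallest p of each list and the genes most like each factor, and other listed genes were named after their values were seen. Sequences and promoter motifs were not analysed here. Intervals on fold changes have a level of 95%. Totals of 2136713 to 4058887 counts limit precision most for TDGF1 and SOX2, and PCR copies were not marked by molecular identifiers.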

Additional observations from a re-analysis of the deposited data

Results flagged for a closer look

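In 8 of 66 sets of 5 libraries checked, 1 library lay far from the others of its treatment, where chance gives about 1 in 20. Among the factors, POU5F1 was at 183 CPM in Co library 1 (next library 167 CPM), SOX2 at 39.7 CPM in FeEV library 2 (next 25.0 CPM), ESRRB at 155 CPM in FeEV library 4 (next 127 CPM) and TDGF1 at 6.48 CPM in FoEV library 3 (next 1.59 CPM). The log2 ratio of NANOG over POU5F1 was -1.84 in Co library 3, and the next Co library was at -1.05. Among the listed genes, KLF5 was at 818 CPM (next 751 CPM) and CYP19A1 at 38.6 CPM (next 18.8 CPM) in FeEV library 2, and STAR at 8.65 CPM in FeEV library 4 (next 5.66 CPM).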

How the results depend on the processing

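No factor was called in FeEV vs. Co or FoEV vs. FeEV under any of the 7 alternatives or without any 1 library. In FoEV vs. Co, 1 factor (NANOG) was called by the robust likelihood ratio test and 1 by the DESeq2 Wald test. The pluripotency partner list had 1 gene called under the robust test, 2 under DESeq2, 2 with no filter on low counts and 1 with the replicate block. The hypoblast list had 1 under the robust test and 1 with no filter, and the trophectoderm list had 1 under each of these 2, DESeq2 and the replicate block, and 0 to 1 when 1 library was left out. The cause was not tested. Over all genes FoEV vs. Co had 1 call by edgeR, 311 by the robust test, 138 by DESeq2, 173 with no filter, 57 with the replicate block and 12 with the library number block. The corresponding counts were 0, 6, 1, 13, 0 and 0 in FeEV vs. Co and 0, 31, 3, 22, 0 and 1 in FoEV vs. FeEV. The 311 calls of the robust test in FoEV vs. Co are more than the study reports, so its list was not reproduced exactly.

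Whether the numbers in the sample titles pair the libraries was not settled. Same-numbered libraries had mean correlations of their deviations of 0.03 (FoEV and Co), 0.14 (FeEV and Co) and 0.19 (FoEV and FeEV), with a lowest of -0.29. For libraries of different numbers the means were -0.008, -0.034 and -0.046. Of 5 libraries, 1, 2 and 2 correlated best with their own number. By the library number of the sample descriptions the means were 0.08, 0.10 and 0.07 for the same number, beside -0.010, -0.013 and -0.014. With the replicate block NANOG had -0.88 in FoEV vs. Co (edgeR adjusted p = 0.186), and all 6 ratio comparisons had an adjusted exact permutation p of 0.312, where 5 pairs cannot give an unadjusted p below 0.0625, so this says nothing about the ratios.

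Without 1 library, the ratio of NANOG over POU5F1 ran from -1.26 to -0.85 in FoEV vs. Co and from -0.93 to -0.61 in FeEV vs. Co, the first value of each without Co replicate 3. The ratio over SOX2 ran from -1.11 to -0.66 and from -0.48 to -0.071. Log2 fold changes near 0 changed sign without 1 library. In FoEV vs. Co they ran from -0.28 to 0.11 (SOX2), -0.041 to 0.12 (SALL4) and -0.014 to 0.059 (TFCP2L1). In FoEV vs. FeEV they ran from -0.010 to 0.14 (POU5F1), -0.13 to 0.031 (SALL4), -0.084 to 0.14 (ESRRB) and -0.052 to 0.085 (OTX2), and ESRRB was at -0.048 with the library number block. The alternatives for 12 listed genes were chosen after seeing the data. Depth limits TDGF1, with 3 to 24 counts per library.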
